A study of Homo sapiens with 12 samples.

Results

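The data concern 10 long noncoding RNAs of B-cell lymphoma, measured by RNA-sequencing in diffuse large B-cell lymphoma (DLBCL) cells that are sensitive or resistant to venetoclax. They are MIR155HG, MIR17HG and DLEU2, whose primary transcripts contain microRNAs, GAS5, SNHG1 and DANCR, whose introns contain small nucleolar RNAs (snoRNAs), MALAT1 and NEAT1, which reside in nuclear bodies, and TUG1 and MIAT. The members were listed by symbol, and earlier results of these data were known when the list was made. They are the 10 rows, of 60675 Ensembl identifiers in each library, whose identifier carries a listed symbol in GENCODE release 44. GENCODE types 9 of them as lncRNA, and TUG1 as protein coding.

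SUDHL6 and SUDHL16 are established human DLBCL cell lines. SUDHL6-parental and SUDHL16-parental cells were the purchased, venetoclax-sensitive lines, and the resistant line of each was derived from them by long exposure to rising concentrations of venetoclax (ABT-199, an inhibitor of the anti-apoptotic protein BCL2) until the cells grew at no less than 10 times the starting IC50. The resistant lines were then kept in venetoclax, and for experiments the cells of both kinds were moved to fresh media. Whether venetoclax was present when the RNA was taken is not given in the sources used here. Total RNA was isolated, and 3 libraries per group were sequenced. They were CE-7, CE-8 and CE-9 for SUDHL6 parental cells, and CE-10, CE-11 and CE-12 for SUDHL6 resistant cells. For SUDHL16 they were CE-25, CE-26 and CE-27 for parental cells, and CE-28, CE-29 and CE-30 for resistant cells. Each resistant line is a single derived line, and the sources used here do not say whether it was cloned. The labels do not say that the libraries of a group came from separate cultures, so p-values measure the spread between these libraries, which may be technical.

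A host RNA is transcribed as a long precursor, from which a small RNA is cut out. Drosha and then Dicer process a microRNA from its hairpin, and the mature microRNA pairs through its seed with messenger RNAs, whose translation and stability it lowers. Intronic snoRNAs are released after splicing and guide the chemical modification of ribosomal and other RNAs, while the spliced host RNA is often degraded by nonsense-mediated decay. In B cells, miR-155 is induced on activation, the miR-17-92 cluster is a MYC-activated oncogene of lymphoma, and miR-15a and miR-16-1 are lost with chromosome 13q14 in chronic lymphocytic leukemia, where they restrain BCL2.

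The microRNAs inside the 3 microRNA hosts are shown because they are what these transcripts are known for. The sequences are the RefSeq mature strands (GRCh38.p14), written 5′ to 3′, with the seed, bases 2 to 8, in capitals. MIR155HG holds miR-155.
miR-155-5p: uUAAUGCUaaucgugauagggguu
MIR17HG holds 6 precursors, and miR-17 and miR-20a share a seed, as do miR-19a and miR-19b.
miR-17-5p: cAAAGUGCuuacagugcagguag
miR-20a-5p: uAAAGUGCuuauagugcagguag
miR-18a-5p: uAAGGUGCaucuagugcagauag
miR-19a-3p: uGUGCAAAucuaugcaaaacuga
miR-19b-3p: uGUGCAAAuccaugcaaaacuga
miR-92a-3p: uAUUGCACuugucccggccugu
DLEU2 holds miR-15a and miR-16-1, which share a seed.
miR-15a-5p: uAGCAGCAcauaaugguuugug
miR-16-5p: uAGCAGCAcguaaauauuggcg
In GENCODE, miR-155 lies in an exon of both MIR155HG transcripts. The miR-17-92 microRNAs are exonic in 3 of 16 MIR17HG transcripts and intronic in the canonical one, and miR-15a and miR-16-1 are exonic in 0 of 29 DLEU2 transcripts. The counts therefore measured the host RNA, and mature microRNAs were not measured.

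The values are read counts per gene, given as CPM on the TMM scale of each line. Between 33992784 and 40885665 reads were counted per library in SUDHL6 and between 4131927 and 22068221 in SUDHL16. CE-26, an SUDHL16 parental library, stood apart: it had the lowest total, 31.9% of its counts were on identifiers not found in GENCODE, and 55.4% were on protein-coding genes, while the other SUDHL16 libraries had 84.3% to 90.2%. The SUDHL16 fold change of each member tested and the SUDHL16 counts and medians of the gene lists are therefore also given without CE-26. The biological coefficient of variation, the spread between libraries of a group, was 0.0516 in SUDHL6, 0.468 in SUDHL16 and 0.339 in SUDHL16 without CE-26. All 7 B-cell markers, among them MS4A1, CD79A and CD79B, had a mean above 1 CPM in each group. The summed T and NK, myeloid and stromal markers were at most 2.31 CPM each in SUDHL6. In SUDHL16 parental libraries they reached 17.9, 13.8 and 19.6 CPM, each time in CE-26, and the lowest parental sums were 1.49, 0 and 0.0551 CPM. The T and NK markers were at 11.9 to 13.7 CPM in SUDHL16 resistant libraries. Their part in the results was not tested. Library kit and instrument differ between the lines, and the lines were scaled and tested separately, so no test of a difference between the lines was made.

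Resistant cells were compared with parental cells within each line by the edgeR quasi-likelihood test. To be called, a gene needed both an adjusted p (Benjamini-Hochberg) under 0.05 and a difference of 1.5-fold or more. In SUDHL6, 3 of the 10 RNAs were called, against 8.96% of the 16662 genes tested. Of these, 2 were lower, MIR155HG and MIR17HG, against 4.65% of all genes, and 1 was higher, MIAT, against 4.31%. Disregarding the fold limit, 9 of the 10 had an adjusted p under 0.05, as did 37.3% of all genes, and the libraries of both groups did not overlap for 9 of the 10, as for 47.9% of all genes. In SUDHL16, 9 of the 10 passed the filter on low counts and 0 were called by edgeR, against 5.3% of 15708 genes (2.1% lower and 3.2% higher). Without CE-26, edgeR also called 0 of the 9, with 1 at an unadjusted p under 0.05, against 10% of 16280 genes (3.32% lower and 6.73% higher). With CE-26, 2 of the 9, MIR17HG and DLEU2, had an unadjusted p under 0.05 in SUDHL16. By this p they ranked 1679 and 2404 among the 15708 genes tested. Of the 9, only these 2 had groups that did not overlap, as was so for 26.6% of all genes. Without CE-26, the groups of MIR17HG, DLEU2 and DANCR did not overlap, as was so for 42.5% of all genes. DESeq2 and limma voom with quality weights each called 1 of the 9, MIR17HG, where they called 1775 and 2648 of all 15708 genes.

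**Figure D1:**
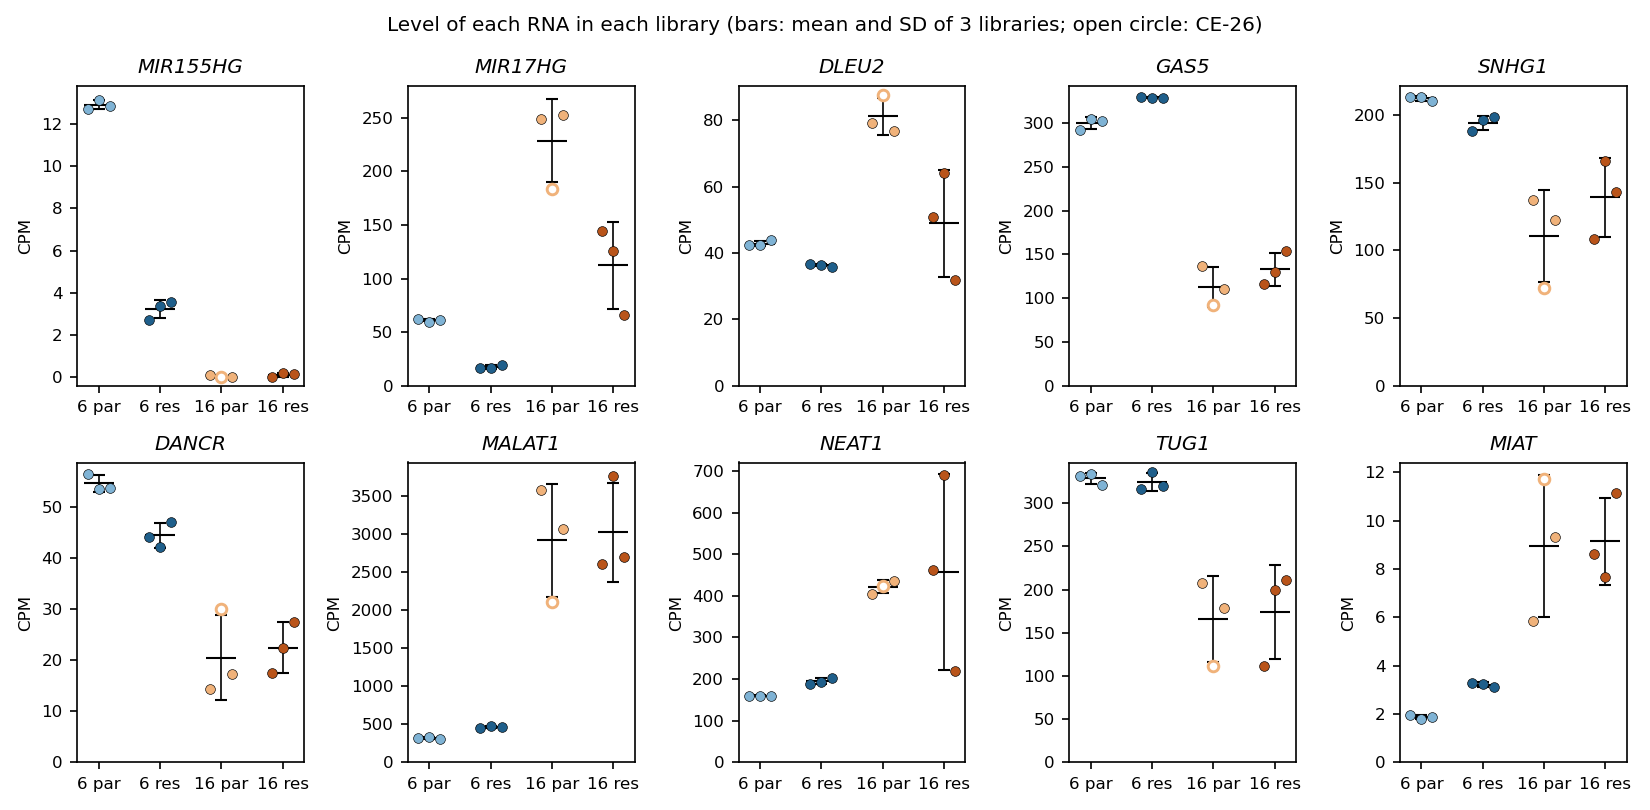
Level of each RNA in each library in CPM (vertical axis, linear and different in each panel) for parental (par) and resistant (res) cells of SUDHL6 (6) and SUDHL16 (16), with the mean and SD of 3 libraries as bars and CE-26 as an open circle. The 3 resistant SUDHL6 libraries sat below the parental ones for MIR155HG (2.73 to 3.55 against 12.7 to 13.1 CPM) and MIR17HG (16.7 to 19.5 against 59.9 to 62.3 CPM), and the SUDHL16 libraries were more widely spread.

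MIR155HG and MIR17HG, the hosts of miR-155 and of the miR-17-92 cluster, were the most lowered of the 10 RNAs in SUDHL6 resistant cells. MIR155HG (chr21:25561810-25575168, plus strand, GRCh38) was at 12.7, 13.1 and 12.9 CPM in the parental libraries and at 2.73, 3.39 and 3.55 CPM in the resistant ones. Every resistant library was below every parental library, and the group means were 12.9 ± 0.210 and 3.23 ± 0.433 CPM (SD, n = 3 each). MIR155HG fell by 2.001 on the log2 scale (SE 0.105, 95% interval -2.23 to -1.77), or 4.002-fold, with an adjusted p of 1.73e-08 by edgeR. The counts behind these values were 433 to 523 reads in parental and 110 to 137 in resistant libraries.

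In SUDHL16, MIR155HG was at or near the limit of detection in both groups. CE-25 held 2 reads and CE-26 and CE-27 held 0, while CE-28 held 0 and CE-29 and CE-30 held 4 each. A count of 0 allows up to 3 reads, by counting error only, so a difference was not detectable at this depth, and MIR155HG did not pass the filter for the test.

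MIR17HG (chr13:91347686-91397592, plus strand) was at 62.3, 59.9 and 61.6 CPM in SUDHL6 parental libraries and at 16.7, 17.01 and 19.5 CPM in resistant ones. The groups were far apart relative to their spread, with means of 61.3 ± 1.25 and 17.7 ± 1.52 CPM (SD, n = 3 each). MIR17HG fell by 1.79 on the log2 scale in SUDHL6 (SE 0.0548, 95% interval -1.91 to -1.67), or 3.46-fold, with an adjusted p of 1.48e-10.

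In SUDHL16, MIR17HG was again lower in every resistant library, but the test did not call it. It was at 249, 184 and 252 CPM in the parental and at 145, 125 and 66.4 CPM in the resistant libraries, the lowest parental value being that of CE-26. The log2 fold change was -1.03 (95% interval -1.79 to -0.26), with an unadjusted p of 0.0143 and an adjusted p of 0.134. Without CE-26 it was -1.15 (95% interval -1.87 to -0.42), with an adjusted p of 0.0589. DESeq2 and voom with quality weights gave -1.04 and -1.11, with adjusted p of 0.0247 and 0.00788.

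The promoters of MIR155HG and MIR17HG are shown since both hosts fell together in SUDHL6 resistant cells. Each runs from 250 bases before to 50 bases after the RefSeq start (GRCh38.p14, plus strand). The MIR155HG window is chr21:25561895-25562194 and the MIR17HG window is chr13:91347437-91347736, and capitals mark motif matches.
MIR155HG promoter: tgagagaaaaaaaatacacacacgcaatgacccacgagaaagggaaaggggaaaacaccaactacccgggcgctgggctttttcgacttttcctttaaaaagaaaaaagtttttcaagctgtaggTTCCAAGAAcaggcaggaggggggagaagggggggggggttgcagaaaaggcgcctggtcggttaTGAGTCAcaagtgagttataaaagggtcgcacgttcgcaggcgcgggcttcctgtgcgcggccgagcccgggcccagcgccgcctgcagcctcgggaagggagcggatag
MIR17HG promoter: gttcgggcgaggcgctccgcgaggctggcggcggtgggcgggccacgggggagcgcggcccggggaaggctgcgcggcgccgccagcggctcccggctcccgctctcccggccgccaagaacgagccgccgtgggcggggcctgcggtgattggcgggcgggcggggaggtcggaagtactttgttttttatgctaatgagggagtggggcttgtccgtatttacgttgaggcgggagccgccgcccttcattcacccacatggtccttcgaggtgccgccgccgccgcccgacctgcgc
The motifs searched on both strands were the E-box CACGTG, which MYC can bind, the AP-1 motif TGANTCA and the STAT motif TTCNNNGAA. The MIR155HG window held 1 AP-1 match, beginning at position -60 from the start, and 1 STAT match, beginning at -125. The MIR17HG window, with a GC content of 73%, held none of these letters. Of 35116 RefSeq promoters of this length, 7.26% held the E-box, 7.71% the AP-1 motif and 7.66% the STAT motif, so a match is common and describes the sequence only.

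DLEU2 (chr13:49956670-50125720, minus strand), the host of miR-15a and miR-16-1, was slightly lower in SUDHL6 resistant cells. It was at 42.3, 42.4 and 43.8 CPM in parental and at 36.6, 36.4 and 35.9 CPM in resistant libraries. The groups did not overlap, and the log2 fold change was -0.24 with an adjusted p of 3.02e-04, short of the 1.5-fold limit. In SUDHL16, the parental libraries were at 79.2, 87.5 and 76.7 CPM and the resistant ones at 50.9, 64.0 and 31.8 CPM. All 3 resistant libraries were below the parental ones, with a log2 fold change of -0.73 (95% interval -1.37 to -0.08), an unadjusted p of 0.0312 and an adjusted p of 0.204. Without CE-26 it was -0.66, with an adjusted p of 0.215.

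DLEU2 shares its locus with genes on the opposite strand, and the strand setting of the counting is not given in the sources used here, so reads of DLEU2 and of its antisense partners may not have been told apart. They did not share 1 direction. TRIM13, a ubiquitin ligase gene, had a log2 fold change of 0.05 in SUDHL6 (adjusted p = 0.393) and 0.16 in SUDHL16 (adjusted p = 0.832). DLEU1, a noncoding RNA, had 0.28 in SUDHL6 (adjusted p = 0.0209) and 0.03 in SUDHL16 (adjusted p = 0.9755). KCNRG, which lies within the DLEU2 span, had -0.31 in SUDHL6 (adjusted p = 0.555) and -0.65 in SUDHL16 (adjusted p = 0.747), the same sign as DLEU2, from 5 to 23 reads per library.

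The genes around the microRNA hosts were counted to show whether their loci moved as a whole. Within 1 Mb of MIR17HG, 0 protein-coding genes passed the filter in either line. Around MIR155HG, 5 were tested in SUDHL6. Their median was -0.04 on the log2 scale, and 1 of them was called, higher. Around DLEU2, 13 were tested, with a median of 0.02 in SUDHL6. The SUDHL16 median was -0.04, or 0.05 once CE-26 was left out, and none was called lower in either line. Across chromosome 13, which carries MIR17HG and DLEU2, 127 of 198 protein-coding genes tested in SUDHL6 (64.1%) were lower in resistant cells, with a median of -0.11 on the log2 scale. Across chromosome 21, which carries MIR155HG, 76 of 121 (62.8%) were lower, with a median of -0.04. On the other chromosomes that carry a member, 47.8% to 49.7% were lower. The part of this in the results of the microRNA hosts was not tested. In SUDHL16 the median over chromosome 13 was 0.03.

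Other annotated microRNA host RNAs were called in both directions. Of 80 in the files, 24 were tested in SUDHL6, of which 4 were called higher and 2 lower, and their median was -0.08 on the log2 scale, against -4.34e-05 for all genes. MIR600HG fell from 86.8 ± 1.67 to 52.5 ± 1.72 CPM (log2 fold change -0.73, adjusted p = 3.19e-09), and MIR3150BHG rose from 7.85 ± 0.688 to 13.96 ± 1.03 CPM (0.83, adjusted p = 1.09e-05). MIR4500HG, with 4, 0 and 0 reads in parental and 51, 36 and 33 reads in resistant libraries, also rose (adjusted p = 8.25e-05). In SUDHL16, 25 were tested, and edgeR called 3 higher and 1 lower, with a median of -0.30 against -0.02 for all genes. Without CE-26, 26 were tested, 4 were called higher and 2 lower, and the median was -0.04 against 0.05 for all genes, so the lower median rested on that library. DESeq2 called 3 higher and 2 lower, and voom 6 higher and 2 lower.

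The 3 raised microRNA hosts in SUDHL16 kept their call without CE-26. MIR223HG, the host of the myeloid microRNA miR-223, was at 1.49, 0 and 0.869 CPM in parental and at 10.9, 12.3 and 15.1 CPM in resistant libraries (adjusted p = 0.0206). The 5 myeloid markers summed to 0 to 13.8 CPM in SUDHL16 parental libraries, with the highest sum in CE-26, where MIR223HG held 0 reads. In resistant libraries they summed to 0 to 0.536 CPM. There CSF1R, MPO, LYZ and FCGR3A were at 0 throughout and CD14 was not. The part of these markers in the MIR223HG result was not tested. MIR4527HG went from 0.453 ± 0.199 to 6.17 ± 2.61 CPM (adjusted p = 0.0201). MIR600HG, which was lower in SUDHL6 resistant cells, went from 10.6 ± 1.73 to 29.7 ± 8.88 CPM in SUDHL16 (log2 fold change 1.49, adjusted p = 0.0356).

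The factors that process microRNAs from their hosts were not called. Of 10, among them DROSHA, DGCR8, XPO5 and DICER1, 0 were called in SUDHL6 or SUDHL16 by edgeR. In SUDHL6, 1 was higher and 4 were lower at an adjusted p under 0.05, against 37.3% of all genes in either direction. Their values lay between -0.29 and 0.13 on the log2 scale. In SUDHL16, 0 of 10 had an unadjusted p under 0.05, with values between -0.47 and 0.67 and a median of -0.10. Without CE-26, 0 were called, with values between -0.67 and 0.41 and a median of -0.08. With all libraries the SE ran from 0.215 for DROSHA (log2 fold change 0.002) to 0.360 for TARBP2 (0.67). The precision therefore differed between the factors. DGCR8 (-0.08, SE 0.301), DICER1 (-0.13, SE 0.315), AGO1 (-0.42, SE 0.329) and AGO2 (0.05, SE 0.331) were among the less precise. A 1.5-fold difference was not resolved for TARBP2 or for these. DESeq2 and voom called 0 in either line.

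Messenger RNAs known as targets of the hosted microRNAs were read from lists written from general knowledge, with no measurement of the microRNAs themselves. Of 10 miR-155 targets tested in SUDHL6, 2 fell and 0 rose. At an adjusted p under 0.05 alone, which 37.3% of all genes reached, 2 were higher and 4 lower. One of them was SOCS1, an inhibitor of cytokine signaling, which went from 2.35 ± 0.278 to 1.17 ± 0.238 CPM (log2 fold change -1.01, adjusted p = 0.00126). The median of the 10 was -0.08.

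In SUDHL16, 9 miR-155 targets were tested, 2 rose and 0 fell by edgeR, and the median was 0.15 on the log2 scale (0.20 without CE-26). SOCS1 held 10, 0 and 0 reads in parental and 174, 243 and 315 reads in resistant libraries (adjusted p = 0.0171). CEBPB, a transcription factor of inflammation and myeloid differentiation, went from 17.5 ± 3.60 to 104 ± 12.9 CPM (log2 fold change 2.56, adjusted p = 0.00113). Without CE-26 both kept their call and INPP5D, which encodes the phosphatase SHIP1, was also called higher (0.86, adjusted p = 0.0430). DESeq2 and voom called these 3 with all libraries.

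Of 7 miR-17-92 targets in SUDHL6, 1 rose and 1 fell. TGFBR2, a receptor of transforming growth factor beta, went from 28.95 ± 0.176 to 51.2 ± 1.24 CPM (log2 fold change 0.82, adjusted p = 6.40e-09). BCL2L11, which encodes the pro-apoptotic BH3-only protein BIM, was at 66.1, 65.0 and 64.8 CPM in parental and at 41.8, 42.6 and 39.7 CPM in resistant libraries (log2 fold change -0.66, adjusted p = 1.34e-08). At an adjusted p under 0.05 alone, which 37.3% of all genes reached, 4 of the 7 were higher and 2 lower. The median was 0.23. In SUDHL16, 0 of 7 were called by edgeR, 1 had an unadjusted p under 0.05, and the median was -0.08. Without CE-26, 0 were called and the median was -0.19. DESeq2 and voom each called 1 of the 7, E2F1, which encodes a cell-cycle transcription factor, as higher.

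Of 9 miR-15 and miR-16 targets tested in SUDHL6, 1 rose and 1 fell, both D-type cyclins at low levels. CCND1 went from 0.836 ± 0.2996 to 1.83 ± 0.257 CPM (log2 fold change 1.11, adjusted p = 0.00368) and CCND2 from 0.679 ± 0.298 to 0.275 ± 0.0277 CPM (-1.28, adjusted p = 0.0210). At an adjusted p under 0.05 alone, which 37.3% of all genes reached, 2 were higher and 6 lower, with a median of -0.29. BCL2 itself, the target of venetoclax, was among those lower, with a log2 fold change of -0.19. In SUDHL16, 6 were tested, and 0 were called by edgeR, DESeq2 or voom or had an unadjusted p under 0.05, with a median of 0.04. Without CE-26, 0 were called and the median was -0.08.

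**Figure D2:**
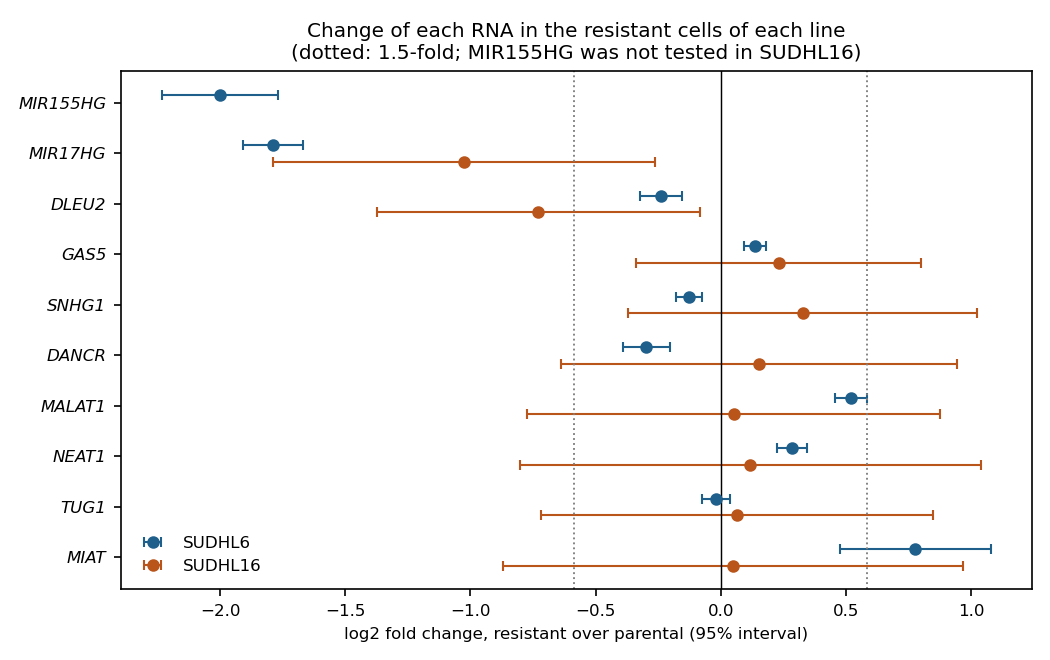
Log2 fold change of each RNA, resistant over parental (horizontal axis), in SUDHL6 and SUDHL16, with the 95% interval of the edgeR fit as bars and a 1.5-fold change as dotted lines. In SUDHL6, MIR155HG and MIR17HG lay at -2.001 and -1.79 and MIAT at 0.78, and in SUDHL16 the intervals of 7 of the 9 RNAs tested included 0.

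The 3 snoRNA hosts had small differences in SUDHL6, in both directions, and none was called. GAS5 (chr1:173858559-173868882, minus strand), whose spliced RNA accumulates when translation slows, was at 292, 305 and 302 CPM in parental and at 330, 328 and 329 CPM in resistant libraries. Every resistant library was above the parental ones, by 0.14 on the log2 scale (adjusted p = 2.01e-04). SNHG1 (chr11:62851978-62855953, minus strand), the host of a cluster of C/D box snoRNAs, was at 213, 213 and 210 CPM in parental and at 188, 196 and 198 CPM in resistant libraries. It was lower in every resistant library, with a log2 fold change of -0.13 (adjusted p = 0.00101). DANCR (chr4:52712325-52723623, plus strand), also known as SNHG13, was at 56.5, 53.6 and 53.8 CPM in parental and at 44.04, 42.2 and 47.2 CPM in resistant libraries, with a log2 fold change of -0.30 (adjusted p = 1.27e-04). It had the largest difference of the 3.

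In SUDHL16 the groups of GAS5 and SNHG1 overlapped. GAS5 was at 137, 92.3 and 110 CPM in parental and at 116, 130 and 153 CPM in resistant libraries, a log2 fold change of 0.23 (95% interval -0.34 to 0.80, adjusted p = 0.690). SNHG1 was at 137, 72.3 and 122 CPM against 108, 166 and 143 CPM, a log2 fold change of 0.33 (95% interval -0.37 to 1.03, adjusted p = 0.633). In both, the lowest parental value was that of CE-26. Without it the log2 fold change was 0.12 for GAS5 (95% interval -0.39 to 0.63) and 0.11 for SNHG1 (95% interval -0.43 to 0.65). DANCR was at 14.4, 29.96 and 17.3 CPM against 17.5, 22.4 and 27.5 CPM, a log2 fold change of 0.15 (adjusted p = 0.868). Here CE-26 was the highest of the 6 libraries, and without it every resistant library was above the parental ones, with a log2 fold change of 0.52 (95% interval -0.14 to 1.17, adjusted p = 0.333). The intervals of all 3 include a 1.5-fold rise, with or without CE-26, so a rise of that size was not resolved. Those of GAS5 and SNHG1 leave out a 1.5-fold fall. That of DANCR with all libraries, -0.64 to 0.94, does not.

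GAS5 overlaps the antisense gene ZBTB37, which encodes a zinc finger protein, and without a known strand setting their reads may be mixed. ZBTB37 had a log2 fold change of 0.14 in SUDHL6 (adjusted p = 0.0338) and of -0.37 in SUDHL16 (adjusted p = 0.419). The snoRNAs inside the hosts were barely counted. In SNHG1, SNORD25, SNORD26, SNORD27 and SNORD28 read exactly 1 in each of the 12 libraries, and SNORD30 read 20 to 26 in SUDHL6 and 1 to 8 in SUDHL16. SNORA26 in DANCR read 6 to 16 in SUDHL6 and 2 to 5 in SUDHL16. The snoRNAs were not distinguishable between the groups at these counts.

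Most other snoRNA hosts were not called. Of 29 in the files, 26 were tested in each line. In SUDHL6, 1 rose and 0 fell, and the median was -0.03 on the log2 scale. At an adjusted p under 0.05 alone, which 37.3% of all genes reached, 5 were higher and 5 lower. The one that rose was SNHG31, from 1.20 ± 0.241 to 2.02 ± 0.349 CPM (0.76, adjusted p = 0.0126). In SUDHL16, 1 rose and 0 fell by edgeR, with a median of 0.14 (0.26 without CE-26). DESeq2 called 2 higher, SNHG29 and SNHG32, and 1 lower, SNHG4, and voom called 3 higher, with ZFAS1 added, and 1 lower, SNHG4. SNHG32 was at 34.1, 37.9 and 34.3 CPM in parental and at 63.2, 65.8 and 102 CPM in resistant libraries (log2 fold change 1.12, adjusted p = 0.0417). Without CE-26, SNHG32 kept its call and ZFAS1, another snoRNA host, was also called higher (1.03, adjusted p = 0.0470).

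Nonsense-mediated decay degrades GAS5, SNHG1 and other spliced snoRNA hosts. Of 10 decay factors in SUDHL6, 0 were called by edgeR and 6 had an adjusted p under 0.05, against 37.3% of all genes. Of the 6, 5 were higher and 1 lower, and the 10 lay between -0.17 and 0.18 on the log2 scale. Their unadjusted p was under 0.05 for the same number, 6, and DESeq2 and voom called 0. In SUDHL16, 1 was called by edgeR, SMG6, the endonuclease of the pathway, which was at 30.5, 24.5 and 41.7 CPM in parental and at 74.4, 74.8 and 61.1 CPM in resistant libraries (log2 fold change 1.11, adjusted p = 0.0453). It was also called without CE-26 (0.97, adjusted p = 0.0374). DESeq2 and voom each called 2 higher, SMG6 and SMG9. The median of the 10 was 0.02, or -0.06 without CE-26.

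MALAT1 and NEAT1, neighbours on chromosome 11, were both higher in SUDHL6 resistant cells, under the 1.5-fold limit. MALAT1 (chr11:65497640-65508073, plus strand), an abundant RNA of nuclear speckles, was at 325, 337 and 310 CPM in parental and at 450, 480 and 462 CPM in resistant libraries. The lowest resistant library lay well above the highest parental one, and the log2 fold change was 0.52 (95% interval 0.45 to 0.58), or 1.43-fold, with an adjusted p of 3.78e-08. NEAT1 (chr11:65422774-65445540, plus strand), the scaffold of paraspeckles, was at 158, 161 and 160 CPM in parental and at 188, 193 and 203 CPM in resistant libraries. Its groups did not overlap either, and it differed by 0.28 on the log2 scale (adjusted p = 4.57e-06), a smaller difference than that of MALAT1. Around MALAT1, the 67 protein-coding genes tested within 1 Mb had a median of 0.01.

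In SUDHL16, neither nuclear RNA differed beyond the spread of the libraries. MALAT1 was at 3573, 2111 and 3065 CPM in parental and at 2603, 3768 and 2694 CPM in resistant libraries. The log2 fold change was 0.05 (95% interval -0.77 to 0.88, adjusted p = 0.958), and without CE-26, the lowest library, it was -0.13 (95% interval -0.66 to 0.41). NEAT1 was at 405, 423 and 437 CPM against 462, 691 and 220 CPM, so that the resistant libraries held both the highest and the lowest value. Its log2 fold change was 0.12 (95% interval -0.80 to 1.04, adjusted p = 0.914). It was 0.13 without CE-26, -0.30 without CE-29 and 0.46 without CE-30.

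Proteins of paraspeckles and nuclear speckles were read beside them. Of 16, among them NONO, SFPQ and SRSF1, 0 were called in either line by edgeR. In SUDHL6, 0 were higher and 10 lower at an adjusted p under 0.05, against 37.3% of all genes in either direction. The 16 lay between -0.18 and 0.10 on the log2 scale, with a median of -0.08. In SUDHL16 the median was -0.19 (-0.34 without CE-26, with 0 called), and 0 of 16 had an unadjusted p under 0.05. DESeq2 and voom also called 0 in either line.

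TUG1 (chr22:30969245-30979395, plus strand), a broadly expressed RNA, was the 1 member without an adjusted p under 0.05 in SUDHL6. It was at 332, 333 and 321 CPM in parental and at 316, 336 and 320 CPM in resistant libraries. The groups overlapped, and the log2 fold change of -0.02 had a 95% interval of -0.07 to 0.03, which leaves out changes of 1.5-fold in either direction. In SUDHL16 it was at 208, 112 and 179 CPM against 111, 200 and 211 CPM, with a log2 fold change of 0.06 (95% interval -0.72 to 0.85, adjusted p = 0.944). The value without CE-26 was -0.15, and 1 library of each group lay near 111 CPM.

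MIAT (chr22:26646411-26676475, plus strand), also named Gomafu, was the 1 member called higher in SUDHL6 resistant cells, at a low level. It was at 1.97, 1.80 and 1.87 CPM in parental and at 3.31, 3.24 and 3.11 CPM in resistant libraries. The groups did not overlap, and MIAT rose by 0.78 on the log2 scale (SE 0.138, 95% interval 0.48 to 1.08), or 1.71-fold, with an adjusted p of 6.98e-04 from 61 to 76 reads in parental and 113 to 133 in resistant libraries. In SUDHL16 it was at 5.84, 11.7 and 9.31 CPM against 8.64, 7.67 and 11.1 CPM. These groups overlapped, with a log2 fold change of 0.05 (95% interval -0.87 to 0.97, adjusted p = 0.964), or 0.28 without CE-26.

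MIAT overlaps an unnamed antisense lncRNA, ENSG00000206028 (chr22:26667693-26672654, minus strand). In SUDHL16 this gene held 0 reads in each parental library and 28, 18 and 52 reads in the resistant ones. Against a floor of 3 counts over the parental group it was at least 20.3-fold higher in resistant cells (adjusted p = 0.0381, and 0.0179 without CE-26). In SUDHL6 it held 11 to 41 reads in parental and 14 to 39 in resistant libraries, and its groups overlapped. MIATNB, on the same strand as MIAT, had a log2 fold change of 0.02 in SUDHL6 (adjusted p = 0.921). Reads of MIAT and of the antisense ENSG00000206028 may have been mixed, since the strand setting is not known. MIATNB overlaps MIAT on its own strand, so no strand setting would separate their reads there.

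Levels of different RNAs were compared within each group as CPM per kilobase of annotated exon, using all exons of all transcripts, which lowers the level of genes with many rarely used exons. In SUDHL6 parental cells GAS5 was highest, at 60.7 ± 1.35 CPM per kb, followed by SNHG1 (53.4 ± 0.497), TUG1 (32.4 ± 0.653) and MALAT1 (31.1 ± 1.26), and MIAT was lowest, at 0.118 ± 0.00532. TUG1 and MALAT1 overlapped in this order, and no other neighbours did. In SUDHL6 resistant cells MALAT1 stood above TUG1, at 44.5 ± 1.42 against 31.9 ± 1.03 CPM per kb, without overlap. MIR155HG went from the fifth to the eighth place, at 7.26 ± 0.118 and 1.82 ± 0.244 CPM per kb, and MIR17HG from the eighth to the ninth, at 4.75 ± 0.0971 and 1.38 ± 0.118.

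In SUDHL16, MALAT1 stood apart, at 280 ± 71.1 CPM per kb in parental and 290 ± 62.1 in resistant cells. SNHG1, GAS5, NEAT1, MIR17HG and TUG1 followed in parental cells at 16.4 to 27.8 CPM per kb, and each overlapped with its neighbour. In resistant cells MIR17HG was below TUG1, at 8.70 ± 3.16 against 17.1 ± 5.36, and these overlapped as well. MIR155HG was lowest in both groups. MALAT1 alone took 67.6% to 75.7% of the counts of all 10 RNAs in the SUDHL16 libraries. In SUDHL6 it took 21.01% to 22.2% in parental and 28.5% to 29.4% in resistant libraries. Library kit and instrument differ between the lines, so a difference of line in this share cannot be told apart from one of kit.

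**Figure D3:**
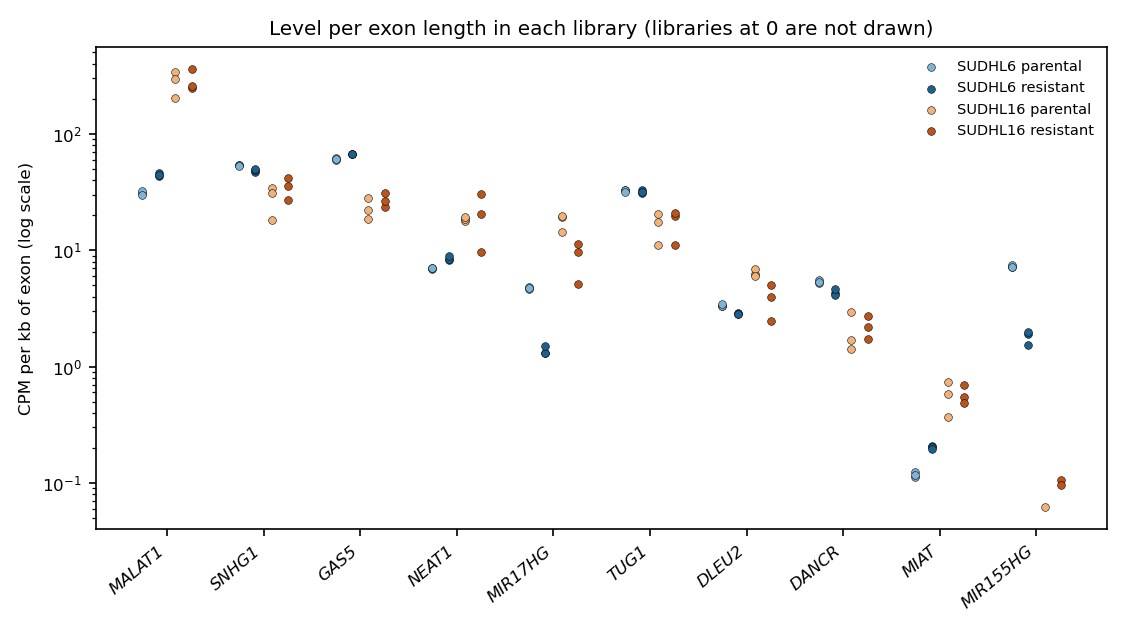
CPM per kilobase of annotated exon (vertical axis, log scale) of each RNA in each library, with parental and resistant cells of each line in separate colors and libraries at 0 not drawn. GAS5 was highest in SUDHL6 (60.7 CPM per kb in parental cells) and MALAT1 in SUDHL16 (280 CPM per kb in parental cells). The lines differ in library kit and were scaled separately.

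**Figure D4:**
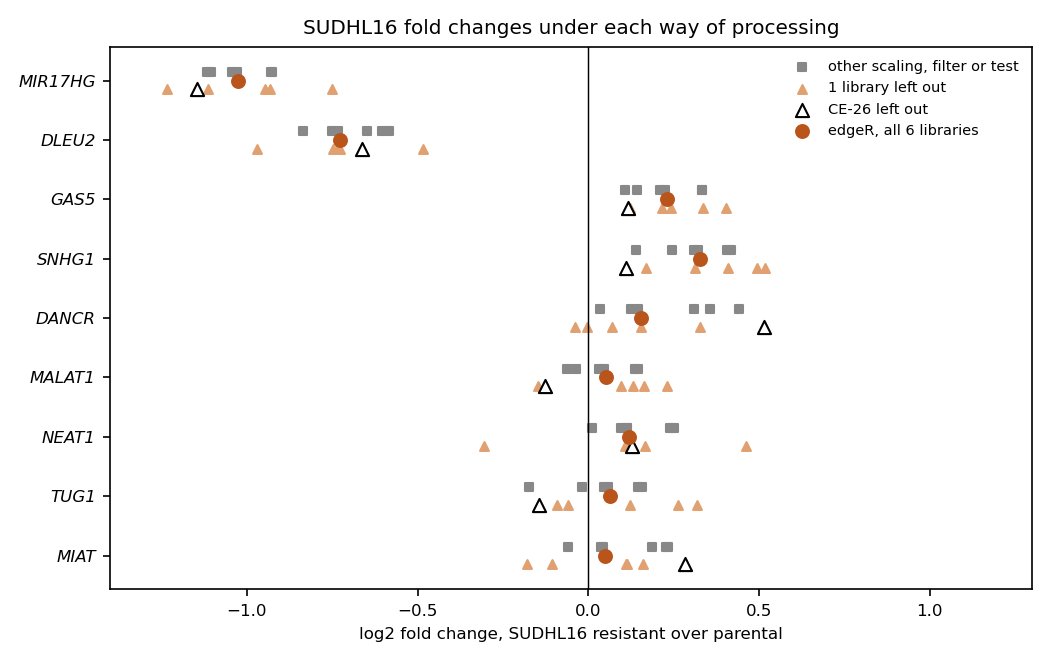
Log2 fold change of the 9 RNAs tested in SUDHL16, resistant over parental (horizontal axis), with all 6 libraries in the edgeR fit (circle), with another scaling, filter or test (squares) and with 1 library left out (triangles, open for CE-26). MIR17HG and DLEU2 stayed below 0 in each, from -1.23 to -0.75 and from -0.97 to -0.48, and GAS5 and SNHG1 above 0, while DANCR, MALAT1, NEAT1, TUG1 and MIAT took both signs.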

How the data were processed

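RNA-sequencing of 12 libraries, 3 per group, was re-analysed. Per the labels and the methods of the study, the authors prepared SUDHL6 libraries with the NEBNext Ultra II kit for a HiSeq and those of SUDHL16 for a NovaSeq with a stranded total RNA kit of Illumina that removes ribosomal RNA (RiboZero Plus). Per the submitters' processing notes, Trim Galore, HISAT2, StringTie, edgeR and the build GRCh38 were used. The deposited values are raw read counts per Ensembl gene, without normalization. The counting tool, its annotation and its strand setting are not given in the sources used here.

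Groups were taken from the labels. Identifiers were matched to GENCODE release 44 (56558 of 60675). Each line was fitted alone with edgeR 4.0.16 in R 4.3.3 (filterByExpr, TMM, two-sided quasi-likelihood test), and p-values were Benjamini-Hochberg adjusted over all genes tested. The limits were an adjusted p of 0.05 and a 1.5-fold change. Log2 fold changes have 95% intervals from the fit. The floor of 3 counts covers counting error only. No libraries of a group were identical. Named genes were the 10 RNAs, the small RNAs they host, up to 3 called genes per list and line with the smallest adjusted p, and genes that overlap a member. A result for a called list gene is not reported here. INPP5D, ZFAS1, SNHG29, SNHG4, SMG9, E2F1 and BCL2 fall outside this rule and were chosen after their values were seen. The RNAs and lists were chosen with earlier results of these data known, and the lists were written from general knowledge. Alternatives were DESeq2 1.42.0, upper-quartile scaling, library totals, no filter, GENCODE identifiers only, limma 3.58.1 voom with quality weights, and each library left out. The edgeR, DESeq2 and voom fits were run on simulated counts. A limit on the share of false calls was set there for edgeR and voom, but not for DESeq2. Sequences are from RefSeq (GRCh38.p14).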

Additional observations from a re-analysis of the deposited data

How the results depend on the processing

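In SUDHL6, the log2 fold changes of the 10 RNAs kept their direction and their side of the test in all 120 alternatives run, and 3 RNAs were called in each scaling, filter and tool. In SUDHL16, 91 of 108 did, and the other 17 were as follows. DESeq2 and voom with quality weights each called 1 RNA where edgeR called 0, MIR17HG at -1.04 and -1.11, and over all genes they called 1775 and 2648 where edgeR called 833. Upper-quartile scaling turned MALAT1 to -0.037, TUG1 to -0.018 and MIAT to -0.060, and voom turned MALAT1 to -0.063 and TUG1 to -0.17. With 1 library left out, the fold change ranged from -0.038 to 0.52 for DANCR, from -0.15 to 0.23 for MALAT1, from -0.30 to 0.46 for NEAT1, from -0.15 to 0.32 for TUG1 and from -0.18 to 0.28 for MIAT, and the count over all genes from 279 to 1636, the highest without CE-26. The adjusted p of MIR17HG in SUDHL16 ranged from 0.00788 to 0.343 over the alternatives. The cause of these differences was not tested. Library totals and upper-quartile scaling moved the median of all genes in SUDHL16 to 0.11 and -0.11, from -0.02 with TMM, which is as large as several of the SUDHL16 values. No paired analysis was possible because the labels give no replicate numbers. With 3 libraries per group, 1 derived line for each parental line, and the depth and spread of SUDHL16, a change of MIAT of the size called in SUDHL6 could not be resolved in SUDHL16.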

Other observations

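The 4 SNHG1 snoRNA rows that read exactly 1 in every library were not alone. Of 60675 identifiers, 178 read exactly 1 in each of the 12 libraries, although the libraries ranged from 4131927 to 40885665 counts. They were 60 of 938 snoRNA genes, 11 of 2206 genes typed misc_RNA, 94 of 4117 identifiers that were not found in GENCODE, and 13 others, of which 1 of 19586 was protein coding. The values of these rows were the same in both lines and in parental and resistant cells, so a row at 1 carries no measure of the snoRNA there. None of the 10 long RNAs was such a row.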
